A study of Mus musculus with 12 samples.

Results

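A panel of 38 macrophage genes was followed in mouse dorsal root ganglia (DRG), the ganglia beside the spinal cord in which the cell bodies of sensory neurons sit. The genes were taken by name from the 44345 listed in the table: 37 matched by gene name, and Spi1, listed under an older symbol, matched by its Ensembl ID. They fall into 5 classes: 11 pan-macrophage genes, 5 Fc receptors and their adaptors, 9 resident-type genes, 2 microglia-type genes and 11 inflammatory and phagocytic genes. The classes rest on what the genes are known for. The genes themselves were chosen with earlier results of these data known. The panel's shares are therefore set beside those of all tested genes without a test.

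RNA of L4 to L6 DRG was read from C57BL/6 mice aged 6 to 8 weeks, in 12 libraries of 2 pooled mice each. The PBS group received phosphate-buffered saline, the vehicle, by gavage each day for 10 days, and the IPA group received indole-3-propionic acid, a tryptophan product of gut bacteria, at a dose of 20 mg/kg on the same schedule. The PBS-SNC and IPA-SNC groups had the same courses before their sciatic nerve was crushed, and their ganglia were taken 3 days later. Each group had 3 libraries. IPA was given on the 3 days after the crush too, and whether vehicle was also given then is not clear from the labels. The comparison of the injured groups therefore rests on longer IPA dosing than that of the uninjured ones. In the crush comparison under IPA, and so in the interaction, the crush and the longer dosing cannot be told apart. Neither sex nor batch is given. Recovered reads came to between 40938034 and 62501969 per library, and all 10 sensory neuron genes looked at were above the filter.

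Macrophages live in the uninjured DRG close to the neuronal cell bodies and the vessels, and they are known to become more numerous there after a peripheral nerve is injured. Fc receptors and their signalling adaptors let them bind antibody-coated material, scavenger receptors such as the mannose receptor and CD163 mark many resident tissue macrophages, and lysosomal and lectin genes such as Cd68 and Lgals3 rise when macrophages engulf debris. PU.1, the product of Spi1, is the ETS-family factor that sets up the myeloid programme and binds purine-rich DNA around a GGAA core, often beside an IRF partner such as IRF8.

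Because Spi1 and Irf8 are themselves in the panel, the promoters of the panel were searched for the letters GAGGAA (a PU.1 core) and GGAANNGAA (a joint PU.1 and IRF element), on both strands, in RefSeq windows of 300 bases on build GRCm38.p6. Windows were found for 28 of the 38 genes. GAGGAA stood in 17 of these 28 (60.7%), beside 31.3% of all 27025 genes with a window, and GGAANNGAA in 8 (28.6%), beside 9.42%. The E-box TCACGTG, known from lysosomal genes, stood in 1, P2ry12 (3.57%), beside 4.29%. A match is a run of letters and not a shown binding site, and these shares were not tested. The windows of a pair of resident-type and a pair of phagocytic genes with large changes are printed, 5′ to 3′ on the gene's own strand, as examples chosen after the matches were seen, since each holds at least 1 of the motifs. The windows of Lgals3 and Cd163, which also had large changes, hold none of the 3 motifs. Capitals mark the matches, and a match on the other strand reads TTCCTC or TTCNNTTCC. Mrc1 (chr2:14229164-14229463, plus strand) holds 3 matches to GAGGAA. Stab1 (chr14:31168592-31168891, minus strand) holds 1 match to GAGGAA and 1 to GGAANNGAA, apart from each other. In Ctss (chr3:95526536-95526835, plus strand) and Cd68 (chr11:69666121-69666420, minus strand) a GAGGAA match and a GGAANNGAA match overlap close to the gene's start. A further GAGGAA lies upstream in both.
Mrc1: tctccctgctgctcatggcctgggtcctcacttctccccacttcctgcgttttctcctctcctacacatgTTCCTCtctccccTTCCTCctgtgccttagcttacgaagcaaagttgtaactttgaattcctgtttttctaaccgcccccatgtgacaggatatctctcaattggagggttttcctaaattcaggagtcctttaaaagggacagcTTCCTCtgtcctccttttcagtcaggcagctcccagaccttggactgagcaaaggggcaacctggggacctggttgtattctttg
Stab1: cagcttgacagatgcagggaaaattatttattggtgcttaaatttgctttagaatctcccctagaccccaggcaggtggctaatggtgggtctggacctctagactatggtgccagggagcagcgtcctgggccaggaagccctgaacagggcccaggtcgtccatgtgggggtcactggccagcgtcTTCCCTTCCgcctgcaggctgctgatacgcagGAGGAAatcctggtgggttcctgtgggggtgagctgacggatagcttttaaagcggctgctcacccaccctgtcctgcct
Ctss: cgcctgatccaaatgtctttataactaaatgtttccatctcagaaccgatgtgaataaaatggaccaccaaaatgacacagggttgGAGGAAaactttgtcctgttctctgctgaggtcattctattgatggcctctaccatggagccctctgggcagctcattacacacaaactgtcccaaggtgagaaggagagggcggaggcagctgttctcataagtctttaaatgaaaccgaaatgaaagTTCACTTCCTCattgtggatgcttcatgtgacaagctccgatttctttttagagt
Cd68: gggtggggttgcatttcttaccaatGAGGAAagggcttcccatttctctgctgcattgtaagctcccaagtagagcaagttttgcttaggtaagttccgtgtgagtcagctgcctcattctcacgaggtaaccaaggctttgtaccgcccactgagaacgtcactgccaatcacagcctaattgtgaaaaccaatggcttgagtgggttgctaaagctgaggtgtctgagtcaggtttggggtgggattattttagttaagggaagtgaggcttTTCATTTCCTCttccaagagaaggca

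Values are the deposited CPM-like values, in which gene length was not divided out, and changes are on the log2(value + 0.5) scale with the standard error (SE) of the limma model. A gene was called when its adjusted p was under 0.05 over the 15603 genes above the filter, a value of 0.5 or more in 3 or more of the 12 libraries. The first question was how far the panel moved 3 days after the crush. Under vehicle 35 of the 38 genes rose and 0 fell, where 23.6% of all tested genes rose and 24.4% fell. Under IPA 32 rose and 0 fell, where 21.2% of all tested genes rose and 22.5% fell. All of these 32 also rose under vehicle, a result that 19.1% of tested genes shared. The median log2 change over the 38 genes was 1.23 under vehicle and 0.95 under IPA, beside medians of -0.0045 and -0.0160 over all tested genes. The estimate was over 1, a doubling on this scale, for 25 genes under vehicle and 16 under IPA, beside 3.44% and 3.04% of tested genes. In whole ganglia, a larger number of macrophages and more RNA per macrophage cannot be told apart.

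All 6 injured libraries lay above all 6 uninjured ones for 31 of the 38 genes, as they did for 18.2% of tested genes. This held for 5 of the 5 Fc receptors and adaptors, 9 of the 9 resident-type, 8 of the 11 pan-macrophage, 8 of the 11 inflammatory and phagocytic and 1 of the 2 microglia-type genes. The 7 genes with overlap were Irf8, Emr1, Ly86, Tmem119, Clec7a, Gpnmb and Cd86. Folr2 and Msr1 passed the filter only through the injured libraries. Of the 36 genes that pass in the uninjured libraries alone, 33 rose under vehicle and 30 under IPA.

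**Figure D1:**
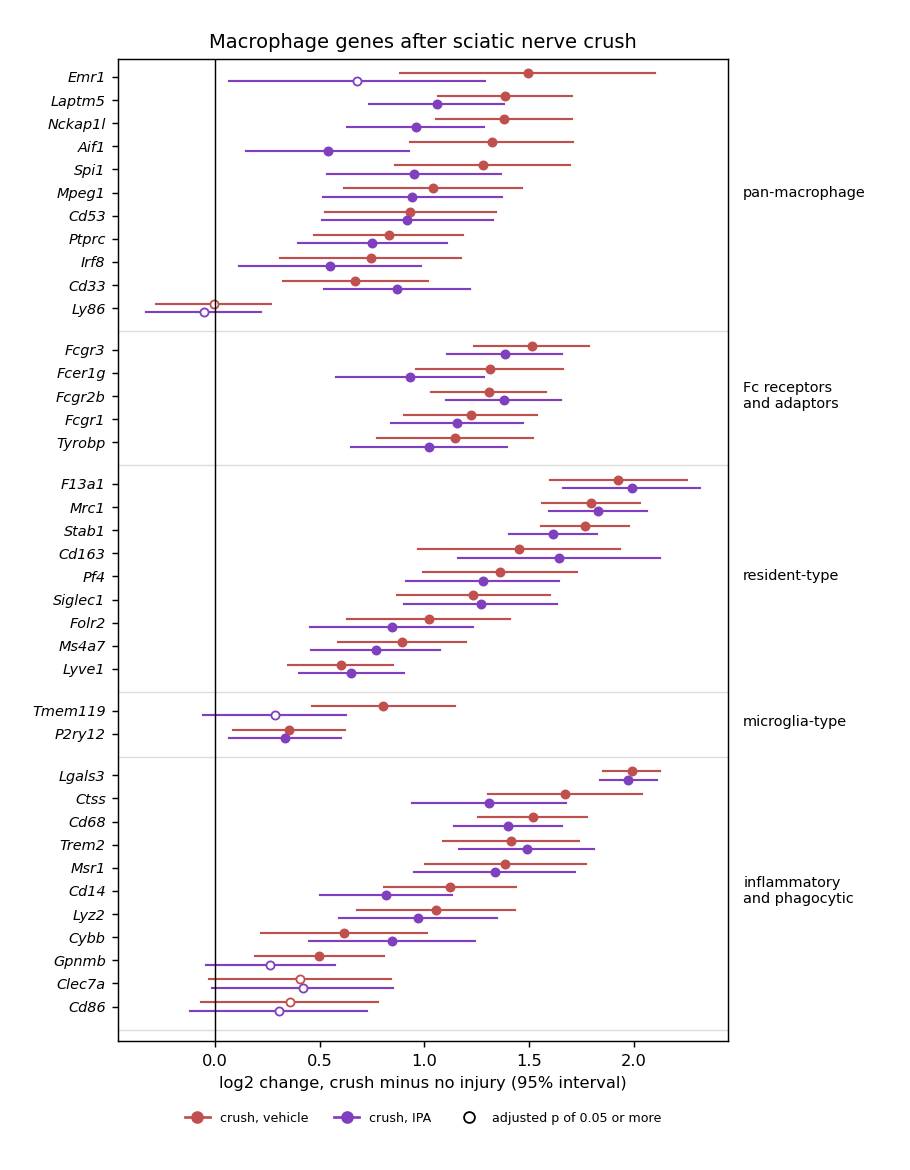
Log2 change after the crush for the 38 genes, by class, with 95% intervals from the limma model; red is PBS-SNC minus PBS, purple is IPA-SNC minus IPA, and open circles mark an adjusted p of 0.05 or more. Every estimate but that of Ly86 lies above 0 in both comparisons, and all 9 resident-type genes were called in both.

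The pan-macrophage genes rose in 10 of 11 cases under vehicle and 9 of 11 under IPA, with median log2 changes of 1.04 and 0.87. Laptm5, a lysosomal membrane protein of blood cells, had the smallest p of the class and measured 6.13, 5.61 and 8.07 in PBS, 9.44, 8.94 and 6.16 in IPA, 17.1, 19.8 and 16.8 in PBS-SNC and 16.6, 16.2 and 19.3 in IPA-SNC libraries. The injured and uninjured libraries did not overlap, with a log2 change of 1.39 ± 0.15 under vehicle (adjusted p = 4.28e-06) and 1.06 ± 0.15 under IPA (adjusted p = 6.16e-05). Nckap1l, the blood-cell subunit of the WAVE complex that drives actin branching, measured 2.52, 2.14 and 2.25 in PBS, 3.75, 3.26 and 2.15 in IPA, 6.76, 7.50 and 6.18 in PBS-SNC and 5.84, 5.74 and 7.36 in IPA-SNC libraries. These groups did not overlap either, and the changes were 1.38 ± 0.15 (adjusted p = 5.13e-06) under vehicle and 0.96 ± 0.15 (adjusted p = 0.000166) under IPA. The transcription factor Spi1 measured 1.37, 1.31 and 2.17 in PBS, 3.42, 2.10 and 1.72 in IPA, 3.80, 4.96 and 4.98 in PBS-SNC and 5.23, 4.48 and 5.24 in IPA-SNC libraries. IPA replicate 1 was the highest uninjured library for Spi1 and still lay below every injured one, with changes of 1.28 ± 0.19 (adjusted p = 0.000101) and 0.95 ± 0.19 (adjusted p = 0.00125).

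Aif1, which encodes the cytoskeletal protein IBA1 used to stain microglia and macrophages, measured 0.539, 0.569 and 0.645 in PBS, 1.81, 1.34 and 0.698 in IPA, 1.99, 2.12 and 2.54 in PBS-SNC and 1.98, 1.89 and 2.15 in IPA-SNC libraries. The 3 PBS libraries sat close together and 2 of the 3 IPA libraries lay well above them, though all 6 uninjured libraries stayed below the injured ones. It rose by 1.32 ± 0.18 (adjusted p = 3.92e-05) under vehicle and by 0.54 ± 0.18 (adjusted p = 0.0264) under IPA. Emr1 (current symbol Adgre1), the adhesion receptor known as F4/80, measured 2.64, 3.30 and 2.94 in PBS, 9.03, 3.92 and 2.78 in IPA, 10.96, 8.73 and 8.16 in PBS-SNC and 6.60, 7.21 and 9.84 in IPA-SNC libraries. IPA replicate 1, at 9.03, lay inside the range of the injured libraries, and the IPA mean of 5.24 ± 3.33 (SD, n = 3) carries that spread. Emr1 rose under vehicle by 1.49 ± 0.28 (adjusted p = 0.000652) and was not called under IPA, at 0.68 ± 0.28 (adjusted p = 0.0682). Without IPA replicate 1 the change under IPA was 1.12 (adjusted p = 0.000317).

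The remaining pan-macrophage genes that rose in both comparisons were Mpeg1, the pore-forming perforin-2, the tetraspanin Cd53, the phosphatase Ptprc (CD45), Irf8 and the sialic-acid receptor Cd33. Their log2 changes ran from 0.67 for Cd33 to 1.04 for Mpeg1 under vehicle, and from 0.55 for Irf8 to 0.94 for Mpeg1 under IPA. Irf8 rose although IPA replicate 2, at 2.87, lay above PBS-SNC replicate 1 (2.27) and IPA-SNC replicate 1 (2.76). Ly86, a secreted partner of the Toll-like receptor relative CD180, was the exception of the class. It measured 93.9, 82.0 and 84.0 in PBS, 89.1, 90.3 and 88.5 in IPA, 108, 87.5 and 67.8 in PBS-SNC and 76.0, 86.3 and 96.8 in IPA-SNC libraries. The groups overlapped fully, and the changes were -0.0049 ± 0.13 (adjusted p = 0.978) and -0.05 ± 0.13 (adjusted p = 0.762), with 95% intervals of -0.28 to 0.27 and -0.33 to 0.22. Its partner Cd180, outside the panel, rose by 0.85 ± 0.18 under vehicle (adjusted p = 0.00154) and 0.57 under IPA (adjusted p = 0.0197). Ly86 also lay far above the other genes of its class, whose highest uninjured value was 10.8, for Mpeg1. The part of other cell types in the Ly86 values was not tested.

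All 5 Fc receptors and adaptors rose in both comparisons, with median log2 changes of 1.31 under vehicle and 1.16 under IPA. Fcgr3, an activating IgG receptor, measured 2.10, 2.81 and 2.697 in PBS, 2.24, 3.20 and 2.25 in IPA, 8.91, 8.13 and 7.37 in PBS-SNC and 7.20, 7.13 and 7.93 in IPA-SNC libraries. Every injured library lay well above every uninjured one, with a log2 change of 1.51 ± 0.13 under vehicle (adjusted p = 3.94e-07) and 1.38 ± 0.13 under IPA (adjusted p = 1.09e-06). Fcgr2b, the inhibitory IgG receptor, measured 2.37, 2.83 and 2.83 in PBS, 2.79, 2.97 and 2.15 in IPA, 7.10, 7.28 and 7.66 in PBS-SNC and 7.01, 6.72 and 9.35 in IPA-SNC libraries. The inhibitory receptor rose with the activating ones, by 1.31 ± 0.13 (adjusted p = 1.66e-06) and 1.38 ± 0.13 (adjusted p = 1.1e-06). Fcgr1, the high-affinity IgG receptor, measured 0.809, 1.10 and 1.08 in PBS, 1.04, 1.34 and 0.897 in IPA, 3.20, 2.90 and 2.82 in PBS-SNC and 2.33, 3.16 and 3.73 in IPA-SNC libraries. It rose by 1.22 ± 0.15 (adjusted p = 1.23e-05) and 1.16 ± 0.15 (adjusted p = 2.44e-05). Fcer1g, the signalling chain that these activating receptors share, measured 1.73, 1.498 and 2.22 in PBS, 3.13, 2.72 and 1.75 in IPA, 4.77, 5.03 and 5.86 in PBS-SNC and 5.18, 4.62 and 5.78 in IPA-SNC libraries. Its injured and uninjured libraries did not overlap, and it rose by 1.31 ± 0.16 (adjusted p = 1.71e-05) and 0.93 ± 0.16 (adjusted p = 0.000396). Tyrobp, the adaptor DAP12 through which TREM2 signals, rose by 1.15 and 1.02. Fcgr2b and Fcgr3 are close relatives in sequence, and how reads shared between such genes were counted is not given in the sources used here, so the split between them is uncertain; the same holds for Lyz2 and its relative Lyz1.

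All 9 resident-type genes rose in both comparisons, with median log2 changes of 1.36 under vehicle and 1.28 under IPA. Of these 9, 8 pass the filter in the uninjured libraries alone, and Folr2 does not. Stab1, the scavenger receptor stabilin-1, measured 11.4, 13.2 and 10.7 in PBS, 11.2, 12.9 and 11.2 in IPA, 35.6, 46.5 and 42.1 in PBS-SNC and 35.4, 36.8 and 39.1 in IPA-SNC libraries. Injured and uninjured libraries were far apart, with group means in a ratio of 3.51 under vehicle and 3.15 under IPA, and a log2 change of 1.77 ± 0.10 under vehicle (adjusted p = 5.6e-09) and 1.62 ± 0.10 under IPA (adjusted p = 1.59e-08). Mrc1, the mannose receptor CD206, measured 6.74, 7.98 and 6.80 in PBS, 6.43, 6.51 and 5.29 in IPA, 27.9, 24.9 and 25.6 in PBS-SNC and 20.6, 21.2 and 27.1 in IPA-SNC libraries. The IPA-SNC libraries 1 and 2 lay below all PBS-SNC libraries and far above every uninjured one, and the changes were 1.80 ± 0.11 (adjusted p = 1.38e-08) and 1.83 ± 0.11 (adjusted p = 1.37e-08). F13a1, the A subunit of clotting factor XIII, measured 5.92, 5.40 and 6.01 in PBS, 3.89, 5.65 and 5.01 in IPA, 22.9, 23.4 and 23.7 in PBS-SNC and 16.6, 18.9 and 27.6 in IPA-SNC libraries. It had the largest estimate of the class, 1.93 ± 0.15 (adjusted p = 2.15e-07) under vehicle and 1.99 ± 0.15 (adjusted p = 1.73e-07) under IPA. The part of other cells, monocytes included, in the F13a1 result was not tested.

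Pf4, a chemokine of platelets that is also read from resident macrophages, measured 1.35, 0.626 and 1.39 in PBS, 1.02, 1.34 and 0.996 in IPA, 3.381, 3.67 and 3.61 in PBS-SNC and 3.65, 2.93 and 3.71 in IPA-SNC libraries. It rose by 1.36 ± 0.17 (adjusted p = 1.79e-05) and 1.28 ± 0.17 (adjusted p = 3.71e-05), while Ppbp, another platelet chemokine, was at 0.14 ± 0.30 under vehicle (adjusted p = 0.726) and the platelet receptor gene Gp1bb rose by 1.18 (adjusted p = 4.69e-06). The part of platelet RNA in the Pf4 result was not tested. The other 5 resident-type genes rose too: Cd163, the haemoglobin scavenger receptor, Siglec1, the sialic-acid receptor of resident and lymph node macrophages, the folate receptor Folr2, the tetraspan gene Ms4a7, and Lyve1, a hyaluronan receptor. Their log2 changes ran from 0.60 for Lyve1 to 1.45 for Cd163 under vehicle and from 0.65 to 1.64, for the same genes, under IPA. Lyve1, which lymphatic endothelium also makes, ranged from 3.42 to 4.53 over the uninjured libraries and from 5.46 to 7.30 over the injured ones. Of 6 lymphatic genes, Ccl21a was at 0 in all libraries and Prox1 was below the filter, Pdpn rose by 0.48 (adjusted p = 8.73e-05), and Flt4 was at -0.02 (adjusted p = 0.9) under vehicle.

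**Figure D2:**
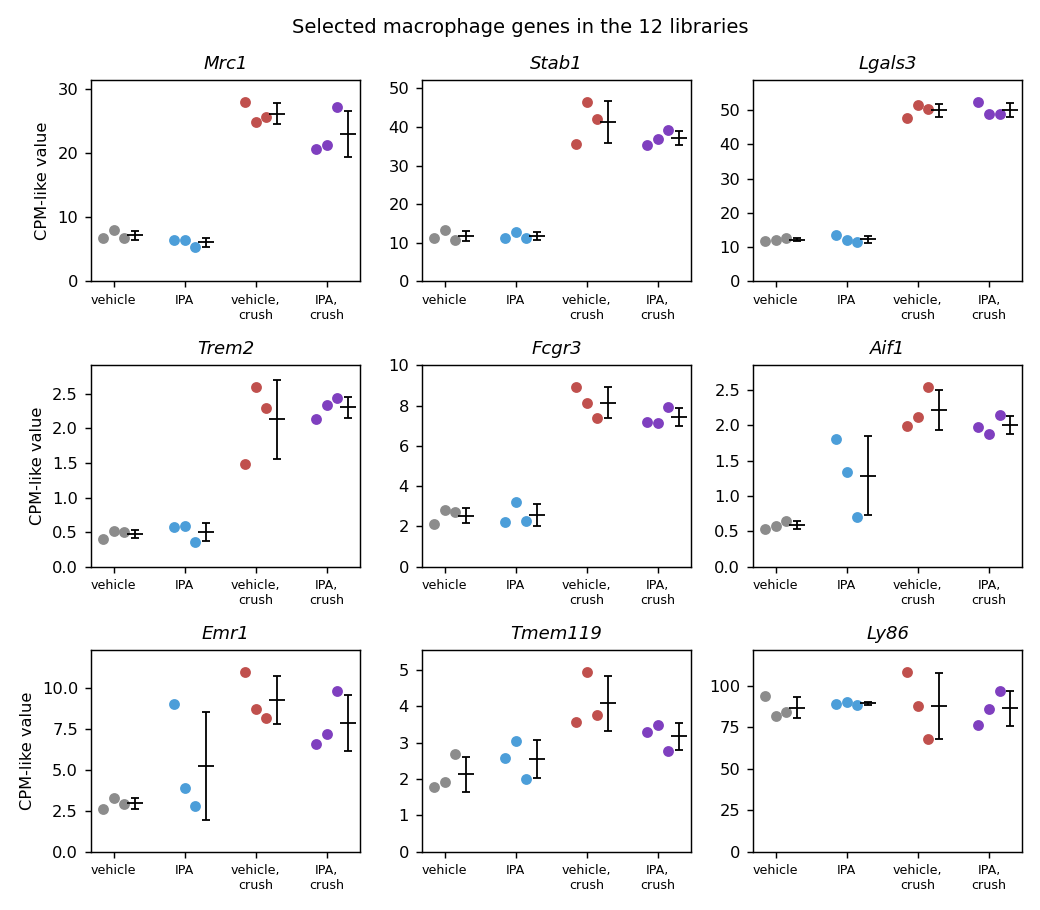
CPM-like values of 9 of the genes in the 12 libraries, with the group mean and SD (n = 3) in black beside the points; each panel has its own axis from 0. Mrc1, Stab1, Lgals3, Trem2 and Fcgr3 separate injured from uninjured libraries, 1 IPA library of Emr1 reaches the injured range, and Ly86 shows no separation.

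The inflammatory and phagocytic genes rose in 9 of 11 cases under vehicle and 8 of 11 under IPA, with median log2 changes of 1.12 and 0.97. Of these 11, 10 pass the filter in the uninjured libraries alone, and Msr1 does not. Lgals3, the galactose-binding lectin galectin-3, which other cell types of the nerve and ganglion can also make, had the smallest p of the panel and measured 11.9, 12.1 and 12.6 in PBS, 13.5, 11.96 and 11.6 in IPA, 47.8, 51.5 and 50.4 in PBS-SNC and 52.3, 48.7 and 48.8 in IPA-SNC libraries. The replicates lay close together and the group means were in a ratio of 4.09 under vehicle and 4.04 under IPA, with a log2 change of 1.99 ± 0.06 under vehicle (adjusted p = 1.79e-11) and 1.97 ± 0.06 under IPA (adjusted p = 2.05e-11). Ctss, the lysosomal protease cathepsin S, measured 4.57, 5.33 and 6.06 in PBS, 8.07, 8.05 and 4.58 in IPA, 18.8, 18.9 and 16.1 in PBS-SNC and 15.7, 16.8 and 19.7 in IPA-SNC libraries. IPA replicates 1 and 2 were the highest uninjured libraries, without reaching the injured range, and the changes were 1.67 ± 0.17 (adjusted p = 2.61e-06) and 1.31 ± 0.17 (adjusted p = 3.07e-05). Cd68, a lysosomal membrane glycoprotein, measured 1.72, 1.55 and 1.62 in PBS, 1.69, 2.14 and 1.59 in IPA, 4.73, 5.97 and 6.20 in PBS-SNC and 5.08, 5.31 and 6.34 in IPA-SNC libraries. It rose by 1.52 ± 0.12 (adjusted p = 2.22e-07) and 1.40 ± 0.12 (adjusted p = 5.53e-07). Trem2, the lipid-sensing receptor that signals through DAP12, measured 0.405, 0.512 and 0.496 in PBS, 0.567, 0.589 and 0.356 in IPA, 1.49, 2.60 and 2.30 in PBS-SNC and 2.14, 2.34 and 2.44 in IPA-SNC libraries. PBS-SNC replicate 1 was the lowest injured library and was still above all uninjured ones, and the changes were 1.41 ± 0.15 (adjusted p = 3.78e-06) and 1.49 ± 0.15 (adjusted p = 2.65e-06).

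Msr1, the class A scavenger receptor, Cd14, the co-receptor for lipopolysaccharide, Lyz2, lysozyme, and Cybb, the catalytic subunit of the phagocyte oxidase, rose in both comparisons, by 1.39, 1.12, 1.06 and 0.62 under vehicle and 1.34, 0.82, 0.97 and 0.84 under IPA. The Cybb call under vehicle was lost when PBS replicate 2 or PBS-SNC replicate 2 was left out. Gpnmb, a glycoprotein of lipid-laden phagocytes and melanocytes, measured 4.78, 3.79 and 4.96 in PBS, 4.30, 5.30 and 5.62 in IPA, 5.71, 7.61 and 6.45 in PBS-SNC and 5.02, 6.56 and 7.09 in IPA-SNC libraries. Groups overlapped under IPA, and Gpnmb rose under vehicle by 0.50 ± 0.14 (adjusted p = 0.0105) and was not called under IPA, at 0.27 ± 0.14 (adjusted p = 0.151). Its vehicle call was lost without the same pair of libraries as Cybb. Clec7a, the fungal glucan receptor dectin-1, measured 0.385, 0.702 and 1.01 in PBS, 0.551, 0.528 and 0.655 in IPA, 0.935, 1.253 and 0.991 in PBS-SNC and 0.574, 0.992 and 1.36 in IPA-SNC libraries. It was at 0.41 ± 0.20 (adjusted p = 0.112) and 0.42 ± 0.20 (adjusted p = 0.11), with overlap between injured and uninjured libraries. Cd86, a costimulatory ligand for T cells, measured 0.173, 0.626 and 0.645 in PBS, 0.441, 0.755 and 0.399 in IPA, 0.557, 0.835 and 0.795 in PBS-SNC and 0.782, 0.624 and 0.891 in IPA-SNC libraries. Its means were the lowest of the panel in both injured groups, it had 9 to 60 recovered reads per library, and the changes were 0.36 ± 0.20 (adjusted p = 0.149) and 0.31 ± 0.20 (adjusted p = 0.227). At this depth the 95% intervals of Cd86, -0.06 to 0.78 and -0.12 to 0.73, include both 0 and a change of over 1.5-fold.

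The 2 microglia-type genes had the lowest class medians, 0.58 under vehicle and 0.31 under IPA. Tmem119, a membrane protein used to tell microglia of the brain from other macrophages, measured 1.79, 1.92 and 2.68 in PBS, 2.57, 3.05 and 2.01 in IPA, 3.56, 4.94 and 3.75 in PBS-SNC and 3.30, 3.49 and 2.76 in IPA-SNC libraries. PBS-SNC libraries lay above all PBS libraries, while IPA-SNC replicate 3 lay below IPA replicate 2. Tmem119 rose under vehicle by 0.81 ± 0.16 (adjusted p = 0.000864) and was not called under IPA, at 0.29 ± 0.16 (adjusted p = 0.164). P2ry12, the ADP receptor of resting microglia, measured 3.78, 3.30 and 3.54 in PBS, 3.47, 3.14 and 3.59 in IPA, 5.89, 4.01 and 4.26 in PBS-SNC and 3.87, 4.80 and 4.62 in IPA-SNC libraries. All injured libraries were above the uninjured ones by a small margin, and it rose by 0.35 ± 0.12 (adjusted p = 0.0308) and 0.34 ± 0.12 (adjusted p = 0.0422). Both calls were lost in several alternative settings, and without PBS-SNC replicate 1 the change under vehicle was 0.20 (adjusted p = 0.126). P2ry12 (chr3:59216272-59262871 on mm10) lies inside Med12l on the opposite strand. Med12l itself had means of 24.8 ± 2.71 in PBS and 18.3 ± 2.06 in PBS-SNC libraries (SD, n = 3), and these groups did not overlap. Whether the authors' counting used strand is not given in the sources used here. Its part in the P2ry12 value was not tested.

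Resident-type and inflammatory genes were then set against each other, the comparison for which the classes were drawn. The resident-type median change was above that of the inflammatory and phagocytic genes by 0.24 under vehicle and 0.31 under IPA, on the log2 scale. With each gene centred on its group mean, the difference between the class medians varied between libraries of a group with an SD of 0.0811. With a pseudocount of 1 they were 0.08 and 0.10, and with 0.1 they were 0.22 and 0.60. The difference under vehicle was 0.070 without PBS replicate 1, and that under IPA was 0.47 without IPA-SNC replicate 3. Within each library, the mean log2 value of the 9 resident-type genes minus that of the 11 inflammatory and phagocytic genes was 0.101, 0.159 and -0.01 in PBS, -0.128, 0.009 and -0.02 in IPA, 0.376, 0.294 and 0.316 in PBS-SNC and 0.266, 0.281 and 0.242 in IPA-SNC libraries. All 6 injured libraries were above all 6 uninjured ones on this measure, which is given without a test because the genes were chosen with results known. The median level of the 9 genes minus that of the 11 moved the other way, from 0.412, 1.214 and 1.118 in PBS to 0.575, 0.109 and 0.09 in PBS-SNC, and from 0.099, 0.657 and 0.778 in IPA to 0.17, 0.109 and 0.107 in IPA-SNC libraries. The injured and uninjured libraries overlapped on it, so the direction of the class difference depended on whether levels were summarised by their mean or their median. These class medians and means include Folr2 and Msr1, which passed the filter only through the injured libraries. The 2 classes overlapped gene by gene. Under vehicle Lgals3 had a larger estimate than all 9 resident-type genes. Lyve1 had a smaller one than 8 of the 11 inflammatory and phagocytic genes. For the lists outside the panel, given below, the median changes differed less. They were 0.43 for other resident-type and 0.37 for other phagocytic, lysosomal and inflammatory genes under vehicle. Under IPA they were 0.40 and 0.32. The outside phagocytic list summed to a mean of 6545 in PBS libraries, beside 409.1 for the other pan-macrophage genes. It includes Apoe, which is also in the satellite glia list. The part of other cell types in the changes of these outside lists was not tested.

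**Figure D3:**
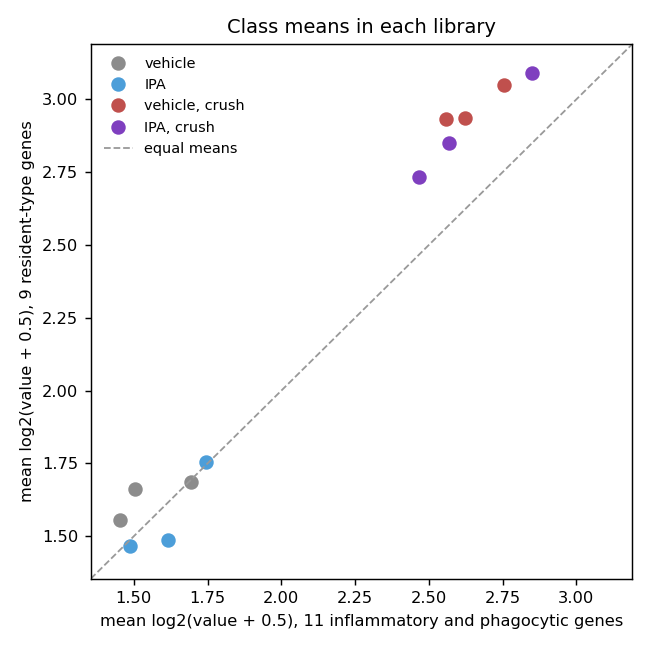
Mean log2(value + 0.5) of the 9 resident-type genes against that of the 11 inflammatory and phagocytic genes, 1 point per library, with a dashed line where the means are equal. The 6 uninjured points lie within 0.159 of the line and the 6 injured points lie 0.242 to 0.376 above it.

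To compare levels between genes, values were divided by the length of the gene's longest annotated transcript in kilobases. That transcript need not be the one that was read, so the ranks below depend on this choice, and other lengths were not tried. In PBS libraries the highest mean per kilobase was that of Ly86, 32.3, followed by Lyz2 at 20.5, Lgals3 at 8.58 and Ctss at 3.92. In PBS-SNC libraries the order was Lyz2 at 42.8, Lgals3 at 35.1, Ly86 at 32.7 and Ctss at 13.3. The lowest per kilobase in PBS libraries were Trem2 at 0.0985 and Msr1 at 0.119, which rose to 0.445 and 0.546 after injury. Among the resident-type genes Pf4, Stab1, F13a1, Lyve1 and Mrc1 lay between 1.33 and 1.91 in PBS libraries.

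Genes of the same biology outside the panel gave a wider view. Over all tested genes 23.6% rose and 24.4% fell under vehicle, and 21.2% rose and 22.5% fell under IPA. Of 30 other pan-macrophage genes, 25 rose and 2 fell under vehicle, and 19 rose and 1 fell under IPA. The complement genes C1qa, C1qb and C1qc rose by 1.88, 1.89 and 1.92 under vehicle, the fractalkine receptor gene Cx3cr1 by 1.59 and the CSF1 receptor gene Csf1r by 1.36. The actin-bundling gene Lcp1 fell by 0.61 (adjusted p = 1.79e-06) and the actin regulator Coro1a by 0.21 (adjusted p = 0.0117). Lcp1 measured 192.1, 199.3 and 178.5 in PBS and 136.3, 119.8 and 118.1 in PBS-SNC libraries. Of 11 other resident-type genes above the filter, out of 18 counted, 6 rose and 1 fell under vehicle, and 5 rose and 1 fell under IPA. The carbonyl reductase Cbr2 rose by 2.31 and the lectin Clec10a by 0.88, while Gas6 fell by 0.24 under vehicle. Timd4 and Vsig4, markers of long-lived resident macrophages elsewhere, were below the filter.

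Of 28 other phagocytic, lysosomal and inflammatory genes listed, 22 were above the filter. Under vehicle 13 of these rose and 2 fell, beside 23.6% and 24.4% of all tested genes. Under IPA 14 rose and 2 fell, beside 21.2% and 22.5%. The metalloprotease gene Adam8 rose by 3.95, the lipid-droplet gene Plin2 by 2.07 and the endosomal tetraspanin gene Cd63 by 1.54. The tetraspanin gene Cd9 and the lipase gene Pla2g7 fell by 0.37 and 0.62. The inflammatory effector genes Il1b, Tnf and Nos2 were below the filter.

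Markers of other immune cells were read for the same libraries. The counts below stand beside 23.6% of all tested genes that rose and 24.4% that fell under vehicle. Under IPA these shares were 21.2% and 22.5%. The monocyte chemokine receptor gene Ccr2 rose by 1.08 under vehicle (adjusted p = 0.000193), and 3 of 7 monocyte genes rose and 0 fell; under IPA 2 rose. Ly6g, a neutrophil surface gene, rose by 1.80 (adjusted p = 1.3e-07), from 0.154, 0.152 and 0.132 in PBS to 1.55, 2.09 and 1.65 in PBS-SNC libraries. All its PBS values lay under the filter value, and its PBS-SNC libraries alone were enough to pass the filter. In all IPA libraries, 2 of the 12 neutrophil genes lay under the filter value. The other 11 neutrophil genes were not called under vehicle, and 4 of the 12 rose under IPA. All 12 estimates were above 0 in both comparisons, with medians of 0.46 under vehicle and 0.92 under IPA. The summed neutrophil values ranged from 18.9 to 66.2 in PBS, 23.6 to 45.0 in IPA, 49.6 to 91.2 in PBS-SNC and 41.5 to 166.5 in IPA-SNC libraries. Cybb, Clec7a, Fcer1g, Tyrobp, Spi1 and Ptprc are also made by neutrophils, and the part of neutrophils in their changes was not tested. Only 3 of 12 T, B and NK cell genes were above the filter, of which 0 rose and 1, Cd79a, fell under vehicle and under IPA. Of 6 dendritic cell genes above the filter 2 rose and 1 fell, and of 5 mast cell genes 0 rose and 1 fell, under vehicle. Skeletal muscle genes, read as a sign of neighbouring tissue, summed to between 141.0 and 187.2 in PBS and between 143.5 and 336.4 in PBS-SNC libraries. Under vehicle 7 of these 8 genes had estimates above 0, with a median of 1.00 over the list, and 0 were called higher. Pvalb was the 1 called, lower, against the direction of the others. Which cells its RNA came from was not tested.

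Libraries of a group also differed in how high the panel stood. The counts of highest and lowest libraries were made for the panel alone and not over all tested genes. They are therefore not shown to be particular to the panel. IPA-SNC replicate 3 was the highest of its group for 34 of the 38 genes, with a median deviation of 0.178 from the group mean on the log2 scale, and it also had the highest neutrophil sum of the 12 libraries. Among the IPA libraries, replicate 2 was the highest for 24 genes and replicate 3 the lowest for 27. PBS-SNC replicate 1, which carried the lowest array weight of all libraries (0.185), was the lowest of its group for 20 genes and the highest for 12, and 34 of the 38 genes rose under vehicle without it. Without IPA-SNC replicate 3, 29 rose under IPA.

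**Figure D4:**
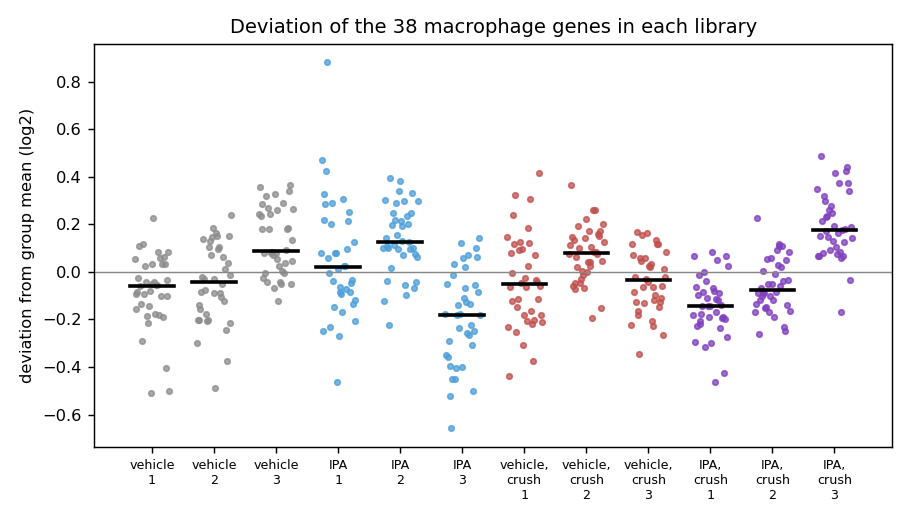
Deviation of each of the 38 genes from its group mean, on the log2(value + 0.5) scale, in the 12 libraries; the black bar is the median over the genes. IPA-SNC replicate 3 has the highest median, 0.178, IPA replicate 3 the lowest, -0.180, and the single point at the top of IPA replicate 1 is Emr1, at 0.882.

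The next question was whether IPA changed the panel in the uninjured ganglion. With limma 0 of the 38 genes were called, as were 0% of all tested genes, and edgeR and DESeq2 on the recovered reads also called 0 of the 38. At an unadjusted p under 0.05, 3 genes were higher and 0 were lower, where 7.29% of tested genes were higher and 4.9% lower. These 3 were Aif1 at 0.67 ± 0.18, Spi1 at 0.44 ± 0.19 and Fcer1g at 0.37 ± 0.16, all with an adjusted p of 0.408. Of the values given above, the 3 IPA libraries of Aif1 lay above the 3 PBS libraries, from 0.698 up against 0.645 at most, as 12.7% of tested genes did. Mrc1 was the 1 gene whose IPA libraries all lay below its PBS libraries, as 12.5% of tested genes did, at -0.22 ± 0.11 (adjusted p = 0.409). Spi1 and Fcer1g overlapped between the groups. Without IPA replicate 1 the change of Aif1 was 0.46 (adjusted p = 0.577). The 95% interval of the IPA effect lay within a 1.5-fold change either way for 29 of the 38 genes, beside 95% of tested genes. With array weights 5 genes rose, Spi1, Aif1, Laptm5, Ctss and Fcer1g, so the count of 0 depends on weighting all libraries alike. These are 13.2% of the panel, and with array weights 12.4% of all tested genes were called higher, a share near that of the panel.

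The pan-macrophage class had a median IPA effect of 0.28 without injury, with 9 of 11 estimates above 0, the resident-type class a median of -0.01 with 4 of 9 above 0, and the inflammatory and phagocytic class a median of 0.04 with 8 of 11 above 0. Over all tested genes 52.9% of the estimates were above 0. Cd163 and F13a1, among the resident-type genes, were at -0.35 ± 0.22 and -0.24 ± 0.15, and neither was called. The class medians were not tested against each other.

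Between the injured groups 0 of the 38 genes were called with limma, beside 0% of tested genes, and edgeR and DESeq2 called 0 of the 38. At an unadjusted p under 0.05, 0 of the 38 were higher and 0 lower, where 4.55% of tested genes were higher and 3.51% lower. The smallest p belonged to Tmem119, at -0.31 ± 0.16 (adjusted p = 0.637), Mrc1, at -0.19 ± 0.11 (adjusted p = 0.653), and Stab1, at -0.15 ± 0.10 (adjusted p = 0.694). Tmem119 was the 1 gene whose IPA-SNC libraries, 3.30, 3.49 and 2.76, all lay below its PBS-SNC libraries, 3.56, 4.94 and 3.75, as 5.58% of tested genes did. The 95% interval lay within a 1.5-fold change for 35 of the 38 genes, beside 96.3% of tested genes. For Lgals3 it was -0.13 to 0.14 on the log2 scale. A p above the threshold does not show that the groups were equal, and these intervals give the sizes that the data allow.

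**Figure D5:**
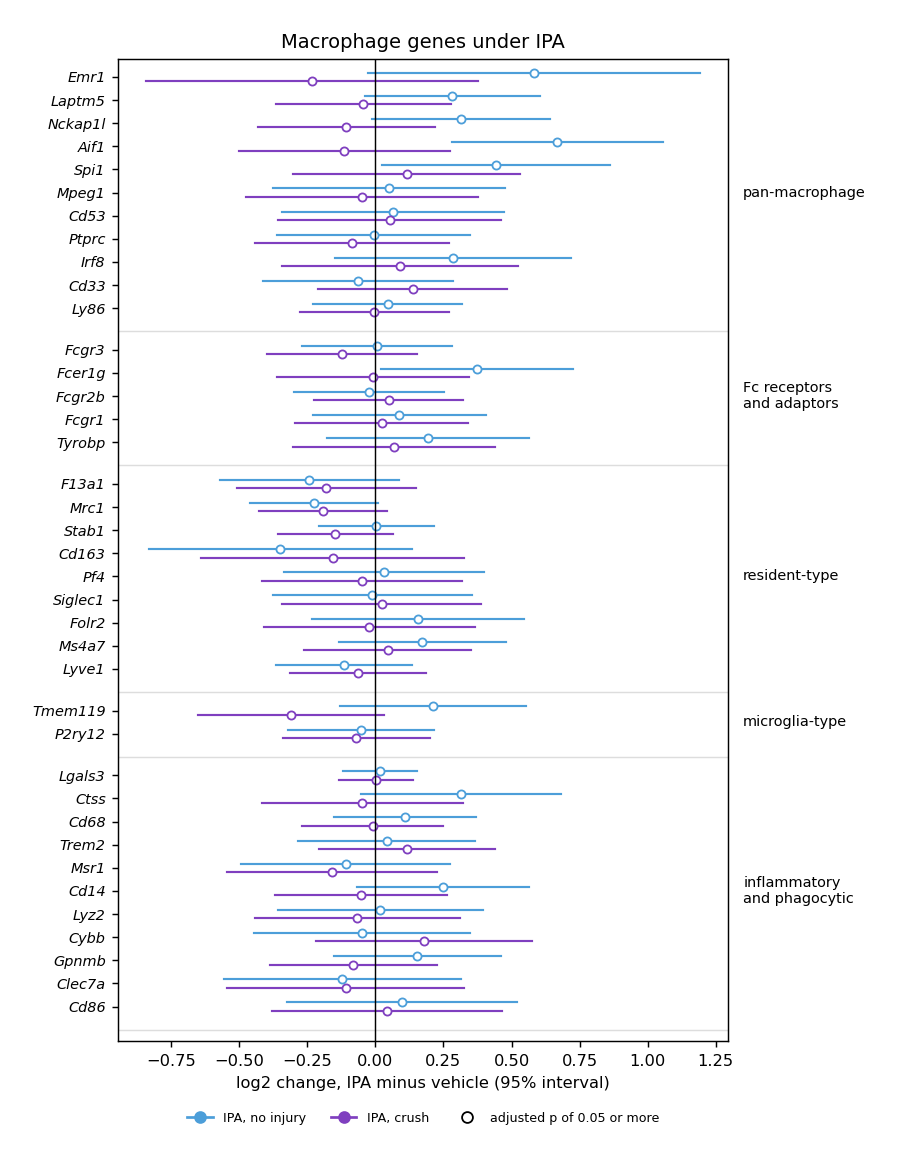
Log2 difference between IPA and vehicle for the 38 genes, by class, with 95% intervals; blue is IPA minus PBS without injury, purple is IPA-SNC minus PBS-SNC. All circles are open, since 0 of the 38 genes passed in either comparison, and Aif1, Spi1 and Fcer1g have blue intervals above 0.

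Whether the crush response itself differed between vehicle and IPA was read from the interaction, the change under IPA minus that under vehicle. With limma 0 of the 38 genes were called and every adjusted p was 1, beside 0% of tested genes, and edgeR and DESeq2 called 0 of the 38. At an unadjusted p under 0.05, 2 genes were lower and 0 higher, where 1.42% and 0.673% of tested genes were. These were Aif1, at -0.78 ± 0.26, and Tmem119, at -0.52 ± 0.22, followed by Emr1, at -0.81 ± 0.40 with an unadjusted p of 0.0623. Of the 38 estimates 10 were above 0 and 28 below, beside 47.6% of tested genes above 0. The calls of Emr1, Tmem119 and Gpnmb under vehicle but not under IPA are therefore not shown to differ between the treatments. The interaction shares its uninjured libraries with both crush comparisons and with the comparison of IPA and PBS, in which Aif1 and Emr1 had their high IPA libraries.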

How the data were processed

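RNA was read from 12 directional poly(A) libraries, from RNA whose integrity number was above 8.0, with read pairs of 75 bases each, per the labels' protocols. According to the submitters' processing notes, the build was mm10 and the tools included FastQC 0.10.1, STAR 2.7.0, R 3.5.0, limma 3.38.3 and edgeR 3.24.3. What counted the reads, and on which annotation, is not given in the sources used here. In 1 table of 44345 genes, named as FPKM, the authors deposited values that behave as CPM: in each library 100.0% of them were whole multiples of 1 step, within a tolerance of 1e-06, so gene length was not divided out and reads could be recovered. One read was worth 0.0130 to 0.0199.

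The analysis used log2(value + 0.5). The 15603 genes that reached 0.5 in 3 or more libraries were fitted in 1 limma-trend model over the 4 groups (limma 3.58.1, R 4.3.3, 8 residual degrees of freedom), with Benjamini-Hochberg adjusted p-values. A change on this scale understates that of low genes. The design had assumed FPKM, and its test suits both units. Alternatives were other pseudocounts, filters and scalings, a threshold of 0.1, array weights, a replicate block, robust empirical Bayes, each library left out, DESeq2 1.42.0 and edgeR 4.0.16 (its quasi-likelihood test) on recovered reads, and removal of GC content and length trends; array weights by REML were chosen after seeing the data. On the recovered reads edgeR called 3810 genes higher and 3683 lower in injury under vehicle, beside 3683 and 3801 with limma. The model was tested on simulated data for injury under vehicle alone, with 50 changed genes at each size. It recovered 48% of 1.25-fold, 74% of 1.5-fold and 100% of 2-fold and 3-fold changes, with 11 false calls. Far fewer genes changed in the simulation than were called in the data. Gene positions and lengths are from GENCODE M21, and promoter windows from RefSeq.

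The members and lists were chosen with earlier results of these data known. From the list of other resident-type genes, 1 gene is not reported here and is left out of its counts. Values in every library are given for up to 4 genes per class with the smallest p in injury under vehicle, for each gene not called in both injury comparisons, and for the 3 with the smallest p in each IPA comparison and the interaction; of other lists, for up to 3 genes, and further genes of those lists were named after their values were seen. Per the labels, the replicates of a group are different pools of mice, and nothing says that equal replicate numbers were paired.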

Additional observations from a re-analysis of the deposited data

How the results depend on the processing

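Under vehicle, 35 of the 38 genes rose in the main analysis, 32 to 35 when 1 library was left out, and 35 with edgeR and with DESeq2; under IPA the count was 32, then 29 to 33, and 32 with both tools. The genes lost were P2ry12, Cybb and Gpnmb under vehicle and Aif1, P2ry12 and Irf8 under IPA; Clec7a was gained under vehicle without PBS replicate 3, and Gpnmb and Clec7a under IPA without IPA-SNC replicate 1. With array weights 1 gene, Ly86, fell under vehicle (-0.24, adjusted p = 0.0431), also 1 with the weights by REML. The sign of Ly86 turned under vehicle to 0.05 without PBS replicate 1, 0.17 without PBS-SNC replicate 3, 0.022 with edgeR and 0.016 with DESeq2, and under IPA to 0.034 without IPA-SNC replicate 1; with 1 library left out it ran from -0.17 to 0.17 under vehicle and from -0.14 to 0.034 under IPA. IPA without injury went from 0 genes to 5 higher with array weights and 7 with REML weights, which also gave 1 higher and 4 lower after injury and 5 lower in the interaction. Of all tested genes 12.4% were higher with array weights and 15.7% with REML weights without injury, and REML weights called 13.7% higher and 11.9% lower after injury and 7.52% lower in the interaction. REML put a weight of 42.2 on IPA-SNC replicate 2. The cause of these shifts was not tested. The difference between the resident-type and the inflammatory medians ran from 0.070 to 0.32 under vehicle and 0.27 to 0.47 under IPA with 1 library left out; it moved to 0.084 and 0.10 with a pseudocount of 1, and to 0.60 under IPA with 0.1. Equal replicate numbers did not pair the libraries (correlation of deviations -0.252 to 0.205); with the replicate number as a block 35 genes rose under vehicle and 32 under IPA, where P2ry12 was lost (adjusted p = 0.053) and Clec7a gained (adjusted p = 0.0495). Depth limits the genes of few reads, such as Cd86, Folr2 and Msr1. Groups of 3 libraries were too small for an outlier test.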

Other observations

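Outside the panel, a pair of pan-macrophage genes shared the pattern of Emr1 in the uninjured IPA group. The small GTPase gene Rac2, which drives the oxidase and migration of blood cells, measured 7.25, 3.25 and 1.92 in IPA libraries and 1.72, 0.948 and 3.01 in PBS libraries. Vav1, an exchange factor for Rac proteins, measured 2.47, 1.03 and 0.940 in IPA libraries and 1.02, 1.08 and 1.16 in PBS libraries. Emr1, Rac2 and Vav1 were the 3 of 114 macrophage-related genes for which IPA replicate 1 lay at least 2 times above both other libraries of its group, as it did for 0.103% of the 15603 tested genes. In IPA-SNC replicate 3 the 1 such gene of the 114 was Chil3, at 13.4 against 4.05 and 2.71, beside 0.154% of the 15603 tested genes. Chil3 is a chitinase-like lectin of alternatively activated macrophages and neutrophils.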
